A study of Mus musculus with 14 samples.

Results

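Surface receptors and secreted cytokines set how a hematopoietic stem cell (HSC) reads inflammatory signals. Here they were followed in 21 genes whose level was compared between old HSCs (oHSCs) and young HSCs (yHSCs) after transplantation. The 21 genes were selected on measured values from 1043 genes of the comparison. A gene entered when its symbol was that of a CD antigen, interleukin, chemokine, integrin, C-type lectin or related family, when it was listed for age but not for loss of clusterin (Clu), and when it was above 0 in at least 1 yHSC library. Of 28 genes with such a symbol, Cd14, Gpr183 and Ly6a2 were left out as also listed for Clu, Cd38, Klrb1c and Csf1r were left out by name, and Itga3 was left out because it was at 0 in all 3 yHSC libraries.

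RNA-seq was performed on HSCs from wild-type old donors (o_Tx, n = 4) and wild-type young donors (y_Tx, n = 3), sorted 4 months after transplantation from the marrow of their recipients. The groups thus shared irradiation of the recipient, transplantation and residence in a host marrow, and differed by donor age. The methods list C57BL/6J mice of 2 months and of more than 18 months, and the exact ages behind these libraries were not given in the sources used here. The series holds 14 libraries, and the other 7 are oHSCs with a guide against Clu or a control guide, of which only the gene names were used. The study describes its sequencing replicates as biological, and which donor or recipient each library came from was not given in the sources used here. Values are taken as FPKM, which divides the fragments of a gene by its transcript length and by the mapped fragments of the library, and sequencing depths are not known.

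The listed genes had already been called higher in oHSCs by the authors from these same 7 libraries. The age differences below are therefore descriptions of a chosen list and carry no p-value for any gene. A difference is the oHSC mean minus the yHSC mean on the log2(FPKM + 1) scale, which understates the change of genes of low level. As a common yardstick, a gene is called past the limits when limma, a linear model fitted over all 1043 genes, gave an unadjusted two-sided p under 0.05 and the difference exceeded 0.5. In bulk samples such as these, fewer cells that make a transcript and less transcript per cell cannot be told apart.

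As background, interferon gamma, interleukins and chemokines act through paired receptor chains or seven-transmembrane receptors, and many receptor chains signal through JAK kinases and STAT factors. C-type lectin-like and CD300 receptors carry short tyrosine motifs that either recruit phosphatases and dampen activation or start it. HSCs divide and lean towards myeloid output when such inflammatory signals are high, and aged HSCs are known for a myeloid-biased output.

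All 21 genes had a higher mean in oHSCs than in yHSCs on the scale of the deposited values. In 15 of 21 genes (71.4%) the difference was past the limits, and none was past them in the other direction. Among all 1043 listed genes 62.5% were past the limits higher and 0.959% lower, so the count sits near that of a list chosen to be higher. In 9 of 21 genes (42.9%) every oHSC library lay above every yHSC library, against 49.7% of the 1043 genes. The 9 were Adgrg2, Cd59b, Cd81, Clec11a, Clec12a, Clec1a, Clec1b, Il4 and Tnfrsf12a. The median difference was 0.74 on the log2 scale over the 21 genes, from 0.27 for Il31ra to 1.31 for Il4, and 0.70 over all listed genes.

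**Figure D1:**
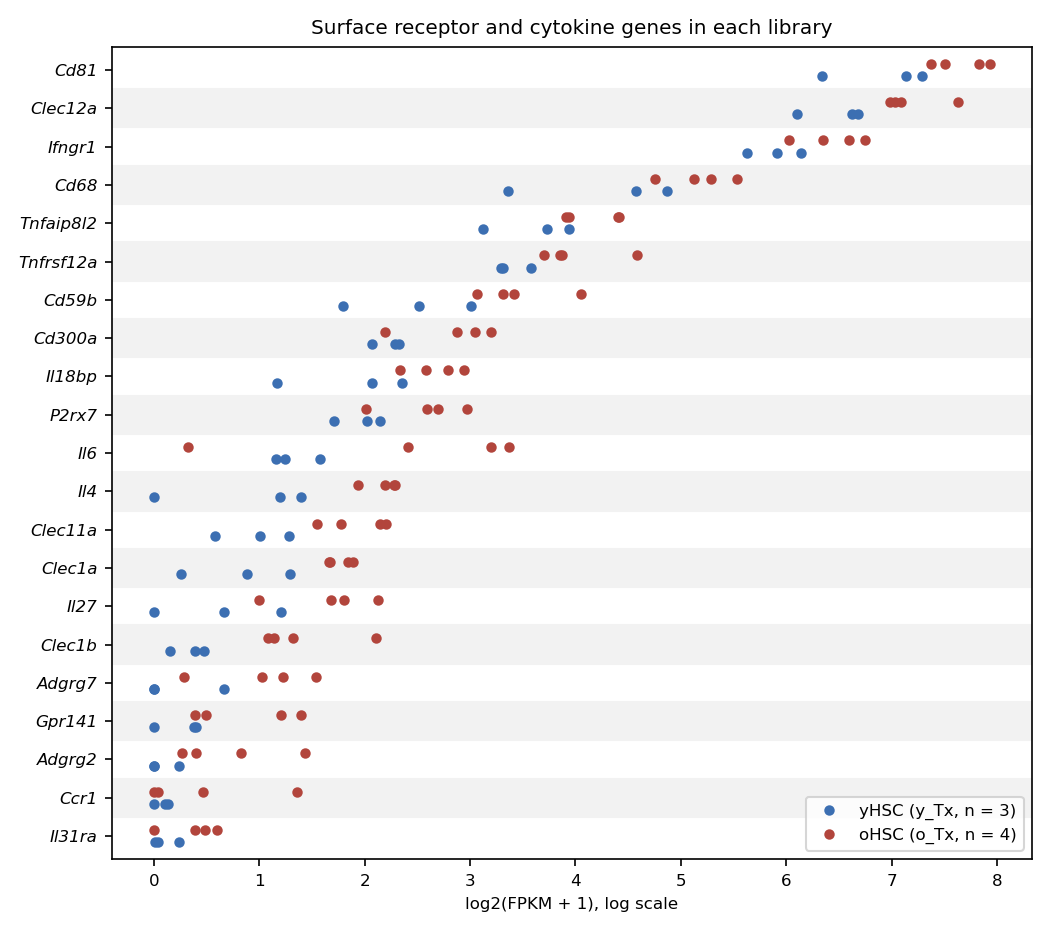
Level of each of the 21 genes in each library, as log2(FPKM + 1) on the horizontal axis, with yHSC libraries (n = 3) in blue and oHSC libraries (n = 4) in red, 1 point per library. Cd81 and Clec12a stand highest, Ccr1 and Il31ra lowest, and 1 oHSC library of Il6 lies below all yHSC libraries.

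The genes covered a wide range of levels, from a mean over the 7 libraries of 170 FPKM for Cd81 to 0.207 FPKM for Il31ra. The 6 genes at 10 FPKM or more (Cd81, Clec12a, Ifngr1, Cd68, Tnfaip8l2 and Tnfrsf12a) had means 1.47- to 1.78-fold higher in oHSCs. The 10 genes between 1 and 10 FPKM had means 1.71- to 6.49-fold higher, and 9 of them were past the limits. Of the 5 genes under 1 FPKM, 2 were past the limits. Over all listed genes in these ranges of level, 66.5%, 65.9% and 38.1% were past the limits, so the share also fell towards low levels in the whole list.

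Summed over the 21 genes, the level was 672, 579, 512 and 458 FPKM in oHSC replicates 1 to 4 and 400.4, 360.4 and 241 FPKM in yHSC replicates 1 to 3. The lowest oHSC sum lay above the highest yHSC sum. Cd81, Clec12a and Ifngr1 made up 77.3% to 82.3% of this sum in each library. Over all listed genes the column sums also differed, from 71628 to 84123 FPKM in oHSCs and from 42199 to 54607 FPKM in yHSCs, and the 21 genes took 0.572% to 0.799% of them. Dividing each library by a median-of-ratios factor over the listed genes lowered the median difference of all genes from 0.70 to 0.07 and that of the 21 genes to 0.28. The factor is computed on genes chosen to be higher in oHSCs, and whether old and young values were scaled together is not stated. That choice of genes and a difference in library scale cannot be told apart here. After this scaling Clec1b alone was past the limits and apart between groups. Cd81, Clec12a, Ifngr1, Tnfaip8l2, Tnfrsf12a, Cd300a and P2rx7 then had negative differences, between -0.28 and -0.04. A scaling of this kind divides all genes of a library by 1 factor. For a gene well above 1 FPKM, a difference near or under the median of the list falls to about 0 or below by construction. Its sign after scaling is then no evidence on its direction. Genes under 1 FPKM move less on the log2(FPKM + 1) scale, as Il31ra from 0.27 to 0.17 and Adgrg2 from 0.65 to 0.53. A positive sign of such genes is no evidence either. After division by column totals 18 of the 21 genes kept a positive difference, and Ifngr1, Tnfaip8l2 and Tnfrsf12a had values of -0.12, -0.0543 and -0.00800.

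**Figure D2:**
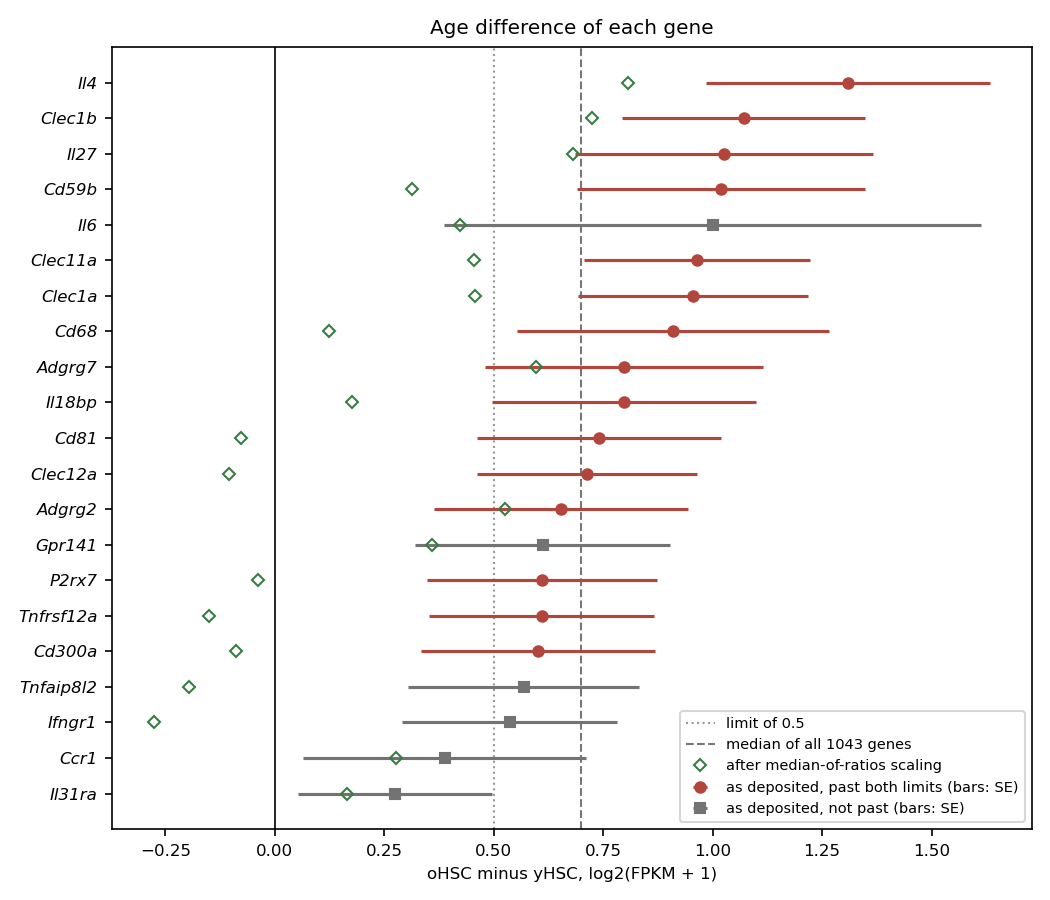
Difference between oHSCs and yHSCs for each gene on the log2(FPKM + 1) scale, with bars for 1 SE. Red circles mark genes past both limits, grey squares those not past, open green diamonds the same difference after median-of-ratios scaling, and the lines mark 0, 0.5 and the median of all listed genes (0.70). Il4 is highest at 1.31, and 7 diamonds lie left of 0.

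The region upstream of a gene's start is where myeloid factors such as C/EBP and PU.1 and inflammatory factors such as AP-1 and NF-kB can bind. In the 250 bases before the RefSeq start (GRCm38.p6), 19 of the 21 genes had an entry, all but Clec1a and Il27. The C/EBP core TTGCNNAA, searched on both strands, was found in 7 of 19 windows (36.8%) against 9.6% of 27025 windows of the same length. These were the windows of Il6, Clec12a, Clec11a, Il18bp, Cd68, Cd300a and Adgrg7. The PU.1 core GAGGAA was in 6 of 19 (31.6% against 23.1%), the AP-1 letters TGANTCA in 4 (21.1% against 6.9%), an NF-kB motif in 2 (10.5% against 1.4%), the STAT letters TTCNNNGAA in 2 (10.5% against 7.2%) and the GATA letters AGATAA in 1 (5.3% against 10.3%). In 5 windows (Adgrg7, Cd300a, Cd68, Clec11a and Clec12a) C/EBP and PU.1 letters stood together, and 8 windows held none of the 6 motifs. Such matches describe letters and not binding, and no test was made of these shares. The shares over all listed genes were not computed, so a share above that of all windows cannot be called particular to the 21 genes.

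The 3 windows of Il6, Clec12a and Cd68 held both the C/EBP and the AP-1 letters and are printed to show how the matches lie relative to each other and to the start, 5′ to 3′ along the gene's strand, with every match in capitals. The Il6 window lies at chr5:30012864-30013113 (plus strand), that of Clec12a at chr6:129349994-129350243 (plus strand) and that of Cd68 at chr11:69666171-69666420 (minus strand).
Il6: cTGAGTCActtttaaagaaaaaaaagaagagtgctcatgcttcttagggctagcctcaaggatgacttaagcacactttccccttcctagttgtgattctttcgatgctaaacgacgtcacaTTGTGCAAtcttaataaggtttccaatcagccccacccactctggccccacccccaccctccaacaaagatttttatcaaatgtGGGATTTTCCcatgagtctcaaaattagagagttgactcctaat
Clec12a: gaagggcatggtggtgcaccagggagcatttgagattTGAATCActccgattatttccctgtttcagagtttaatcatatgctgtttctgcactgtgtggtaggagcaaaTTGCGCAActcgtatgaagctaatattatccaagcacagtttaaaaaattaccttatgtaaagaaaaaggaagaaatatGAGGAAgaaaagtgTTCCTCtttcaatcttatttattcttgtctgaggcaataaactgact
Cd68: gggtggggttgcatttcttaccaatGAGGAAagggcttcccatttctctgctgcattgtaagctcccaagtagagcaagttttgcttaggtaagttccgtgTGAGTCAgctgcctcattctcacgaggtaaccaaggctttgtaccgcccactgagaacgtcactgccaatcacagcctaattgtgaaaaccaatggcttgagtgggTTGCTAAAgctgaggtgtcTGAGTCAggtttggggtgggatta
In Il6 the capitals mark AP-1 at 249 to 243 bases before the start, C/EBP at 128 to 121 and NF-kB at 44 to 35. In Clec12a they mark AP-1 at 213 to 207, C/EBP at 140 to 133 and PU.1 at 61 to 56 and 47 to 42. In Cd68 they mark PU.1 at 225 to 220, AP-1 at 149 to 143 and 24 to 18, and C/EBP at 43 to 36. No pair of matches overlapped in these 3 windows. The RefSeq start of Clec12a used here lies inside the span that GENCODE gives the gene.

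The counts by role that follow rest on 4 or 5 genes each, stand beside the 62.5% of all listed genes that were past the limits higher, and single out no role. Among C-type lectin-like and inhibitory receptors, all 4 genes, Clec12a, Clec1a, Clec1b and Cd300a, were past the limits, with a median difference of 0.83. Clec12a, Clec1a and Clec1b lie in 1 cluster on chromosome 6 (mm10, chr6:129342691-129452000), a span of 109.3 kb with 5 protein-coding genes, Clec12a, Clec12b, Clec1a, Clec1b and Clec9a. Clec12a encodes an inhibitory receptor of myeloid cells. It measured 197, 125, 135 and 130 FPKM in oHSC replicates 1 to 4 and 102, 97.8 and 67.5 FPKM in yHSC replicates 1 to 3. The oHSC mean was 147 ± 33.8 FPKM (SD, n = 4) and the yHSC mean 89.0 ± 18.8 FPKM (SD, n = 3), with a difference of 0.71 (SE 0.25). The groups did not overlap, oHSC replicate 1 stood apart above the other oHSC libraries, and without yHSC replicate 3 the difference was 0.53 and no longer past the limits.

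Clec1b encodes CLEC-2, the podoplanin receptor of platelets, megakaryocytes and some myeloid cells, which starts activation through a single tyrosine motif. Its level was 1.13, 3.30, 1.502 and 1.21 FPKM in oHSCs, set against 0.316, 0.116 and 0.392 FPKM in yHSCs. The lowest oHSC library was above the highest yHSC library, and the mean was 6.49-fold higher, with a difference of 1.07 (SE 0.28). Clec1b was the only gene of the 21 that stayed past the limits under all 15 alternatives run, including both scalings. It shares exon sequence on the map with Clec9a, and 3.9% of the 50-base words of its longest transcript also occur in transcripts of other genes, so reads may be split between them.

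Clec1a encodes CLEC-1, a lectin-like receptor of endothelial and myeloid cells. It measured 2.70, 2.19, 2.60 and 2.16 FPKM in oHSCs, a narrow range, and 0.197, 0.845 and 1.45 FPKM in yHSCs. The groups were apart, with a difference of 0.96 (SE 0.26), and the call held when each library was left out. Cd300a, an inhibitory receptor that binds phosphatidylserine on dying cells, measured 7.28, 8.18, 6.35 and 3.57 FPKM in oHSCs and 3.89, 3.21 and 4.01 FPKM in yHSCs. Replicate 4 of the oHSCs lay within the yHSC range, and the other 3 oHSC libraries lay above it. The difference of 0.60 (SE 0.27) was past the limits, and it was not past them in 6 of the 7 fits that left out 1 library, all but that without oHSC replicate 4, where it was 0.81. In those 6 fits it ranged from 0.48 without oHSC replicate 2 to 0.65 without yHSC replicate 3.

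Among the cytokine, chemokine and TNF family receptors, 1 of 4 genes was past the limits and the median difference was 0.46. Ifngr1 encodes the ligand-binding chain of the interferon gamma receptor and lies at chr10:19591949-19610229 (mm10, plus strand). It measured 106, 95.5, 80.3 and 64.0 FPKM in oHSCs and 69.4, 59.1 and 48.3 FPKM in yHSCs. The lowest oHSC library lay below the highest yHSC library, so the groups overlapped by 1 library, and the difference was 0.54 (SE 0.25), not past the limits. It was past them with 0.67 without oHSC replicate 4 and with 0.66 without yHSC replicate 1. When same-numbered libraries were blocked as pairs, oHSC replicate 4 had no partner, so the estimate was the same as without that library (0.67, with an SE of 0.20), and it was past the limits.

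Tnfrsf12a encodes Fn14, the receptor for the TNF family ligand TWEAK. It measured 12.0, 23.0, 13.6 and 13.4 FPKM in oHSCs and 11.0, 8.80 and 8.91 FPKM in yHSCs. The groups did not overlap, with oHSC replicate 2 well above the rest, and the difference was 0.61 (SE 0.26). Without oHSC replicate 2 it was 0.41, without yHSC replicate 2 it was 0.56 and without yHSC replicate 3 it was 0.57, and in these 3 fits it was not past the limits.

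The other receptors of this role were close to the lower end of the scale. Ccr1, a receptor for inflammatory CC chemokines, measured 0.381, 0.0306, 1.57 and 0 FPKM in oHSCs and 0.0756, 0 and 0.0967 FPKM in yHSCs. Its level was high in oHSC replicate 3 only, and the difference of 0.39 (SE 0.32) was 0.09 without that library. Il31ra, a chain of the interleukin 31 receptor related to the IL-6 receptor family, measured 0.514, 0.313, 0.405 and 0 FPKM in oHSCs and 0.0317, 0.177 and 0.00527 FPKM in yHSCs. In 3 oHSC libraries it was above all yHSC libraries and in 1 it was at 0, and the difference was 0.27 (SE 0.22).

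Cytokines and secreted regulators had a median difference of 0.9997, and 4 of 5 were past the limits. Il4 encodes interleukin 4, a type 2 cytokine made by basophils, mast cells and T cells, and lies at chr11:53602982-53618669 (mm10, minus strand). It measured 3.89, 3.58, 2.84 and 3.84 FPKM in oHSCs and 1.30, 0 and 1.63 FPKM in yHSCs. Its oHSC libraries were close to each other and all above the yHSC libraries, and its difference of 1.31 (SE 0.32) was the highest of the 21 genes. The call held when each library was left out, and after column-total scaling, but not after median-of-ratios scaling, where the difference was 0.81.

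Il6, the inflammatory cytokine that signals through gp130, had the widest spread and lies at chr5:30013114-30019981 (mm10, plus strand). It measured 9.33, 8.21, 0.249 and 4.32 FPKM in oHSCs and 1.37, 1.24 and 1.98 FPKM in yHSCs. Replicates 1, 2 and 4 of the oHSCs lay above all yHSC libraries and oHSC replicate 3 lay below all of them. The means were 5.53 ± 4.12 FPKM (SD, n = 4) and 1.53 ± 0.395 FPKM (SD, n = 3), the difference was 0.9997 (SE 0.61), and it was not past the limits. Without oHSC replicate 3 it was 1.67 and past them, and without oHSC replicate 1 or 2 it was 0.65 and 0.71 and not past them.

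Il27 encodes the p28 chain of interleukin 27, whose partner chain is Ebi3. Il27 measured 2.21, 3.36, 2.49 and 0.999 FPKM in oHSCs and 0.586, 1.31 and 0 FPKM in yHSCs. Replicate 4 of the oHSCs lay below yHSC replicate 2, and the difference was 1.03 (SE 0.34), falling to 0.71 and out of the limits without yHSC replicate 3. Its exons overlap those of Apobr on the map. Ebi3 measured 25.1, 19.4, 14.6 and 20.3 FPKM in oHSCs and 14.3, 13.4 and 5.32 FPKM in yHSCs, so both chains were higher and Ebi3 was the more abundant of the pair on the length-scaled FPKM level.

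Il18bp encodes the secreted protein that binds and blocks interleukin 18. It measured 5.92, 5.004, 6.68 and 4.03 FPKM in oHSCs and 3.20, 4.11 and 1.25 FPKM in yHSCs. The groups overlapped at a single pair of libraries, and the difference was 0.80 (SE 0.30). It was 0.75 without oHSC replicate 1, 0.70 without oHSC replicate 3 and 0.45 without yHSC replicate 3, each not past the limits. Its exons overlap those of Numa1, 1 of 7 such overlaps on the map (with Cd81 and R74862, Clec1b and Clec9a, Il27 and Apobr, P2rx7 and Mir8115, Adgrg2 and Gm15241, Il31ra and Gm3226), and a library kit that does not keep strand cannot tell overlapping genes apart.

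Clec11a encodes a secreted C-type lectin growth factor that acts on blood progenitors and bone. It measured 1.93, 3.44, 3.61 and 2.42 FPKM in oHSCs and 0.492, 1.43 and 1.01 FPKM in yHSCs. The groups were apart, the difference was 0.96 (SE 0.26), and the call held when each library was left out.

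**Figure D3:**
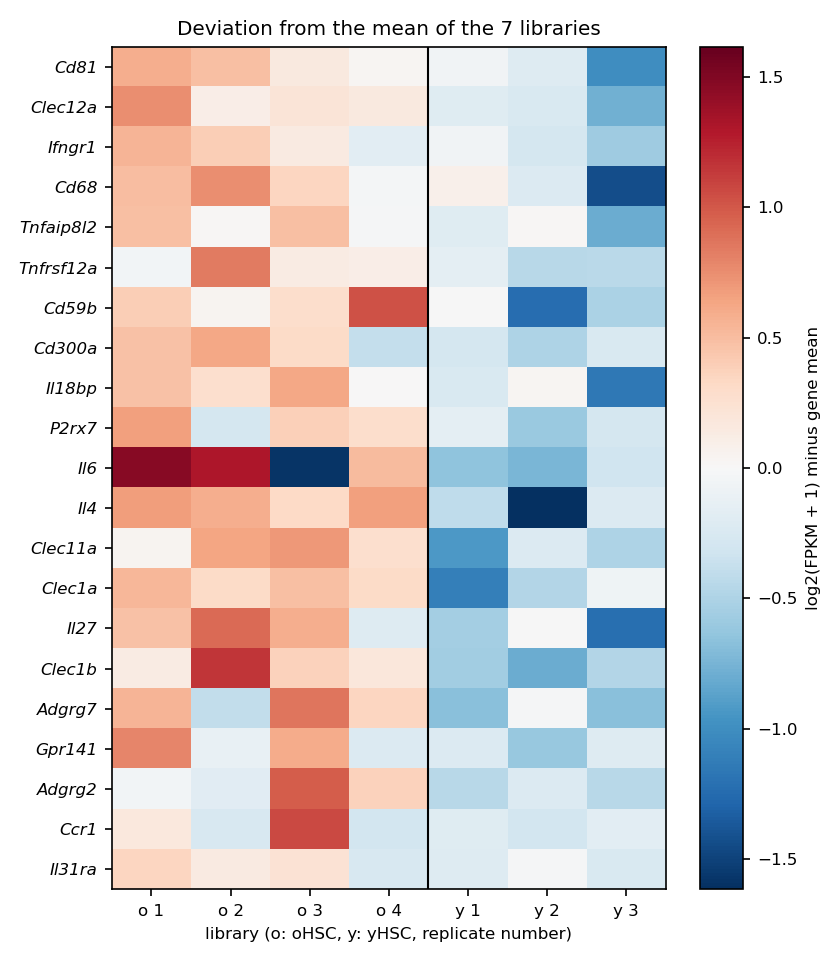
Each gene's log2(FPKM + 1) in each library minus its mean over the 7 libraries (colour, from blue for lower to red for higher), with genes in rows by level and libraries in columns, oHSCs (o) left of the line and yHSCs (y) right of it. oHSC columns are mostly red and yHSC columns mostly blue, and Il6 in oHSC replicate 3 and Il4 in yHSC replicate 2 are among the darkest blue cells.

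Of the ion channel and seven-transmembrane receptors, 3 of 4 were past the limits, with a median difference of 0.63. P2rx7 encodes an ATP-gated channel that senses extracellular ATP in inflammation. It measured 6.84, 3.05, 5.48 and 5.02 FPKM in oHSCs and 3.44, 2.27 and 3.05 FPKM in yHSCs. Replicate 2 of the oHSCs lay within the yHSC range and the other 3 above it, with a difference of 0.61 (SE 0.26). It was not past the limits in 5 of the 7 fits that left out 1 library, with 0.48 without oHSC replicate 1, 0.57 without oHSC replicate 3, 0.60 without oHSC replicate 4, 0.48 without yHSC replicate 2 and 0.64 without yHSC replicate 3.

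Gpr141, an orphan receptor, and Adgrg2 and Adgrg7, adhesion receptors, were all under 1 FPKM on average. Adgrg2 measured 0.322, 0.206, 1.70 and 0.771 FPKM in oHSCs and 0, 0.179 and 0 FPKM in yHSCs. All oHSC libraries were above all yHSC libraries, though the lowest exceeded the highest by little, and the difference was 0.65 (SE 0.29). Adgrg7 measured 1.34, 0.218, 1.91 and 1.04 FPKM in oHSCs and 0, 0.585 and 0 FPKM in yHSCs. Replicate 2 of the oHSCs lay below the highest yHSC library, and the difference was 0.80 (SE 0.32). Adgrg2 was past the limits only in the fits without oHSC replicate 1 or 2, and ranged from 0.42 without oHSC replicate 3 to 0.73 without yHSC replicate 2 in the 5 others. Adgrg7 was past them only without oHSC replicate 2 or yHSC replicate 2, and ranged from 0.62 without oHSC replicate 3 to 0.80 without oHSC replicate 4 in the rest. With same-numbered libraries blocked as pairs, where the estimates equal those without oHSC replicate 4, neither was past the limits (0.62 for Adgrg2 and 0.80 for Adgrg7).

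Gpr141 measured 1.64, 0.411, 1.31 and 0.312 FPKM in oHSCs and 0.306, 0 and 0.319 FPKM in yHSCs. Replicates 1 and 3 of the oHSCs were high, replicate 4 lay between the higher yHSC libraries, and the difference was 0.61 (SE 0.29), not past the limits. Without oHSC replicate 2 it was 0.74 and without oHSC replicate 4 it was 0.77, both past them, and the blocked pairs, which give replicate 4 no weight, returned the same 0.77. Adgrg2 and Adgrg7 were above 0 in 1 yHSC library each and so stand just inside the rule. Itga3, an integrin chain at 0 in all 3 yHSC libraries and at 0.161, 0.129, 0.0562 and 0.459 FPKM in oHSCs, stands just outside it.

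Of the other CD antigens and the intracellular regulator Tnfaip8l2, 3 of 4 genes were past the limits, with a median difference of 0.83. Cd81 encodes a tetraspanin that organises receptors in the membrane, and it was the most abundant of the 21 genes (mm10, chr7:143052739-143067934, plus strand). It measured 243, 226, 181 and 165 FPKM in oHSCs and 155, 139.6 and 79.9 FPKM in yHSCs. The groups did not overlap, although oHSC replicate 4 lay near yHSC replicate 1. The means were 204 ± 36.9 FPKM (SD, n = 4) and 125 ± 39.8 FPKM (SD, n = 3), with a difference of 0.74 (SE 0.28) that was 0.65 without oHSC replicate 1, 0.68 without oHSC replicate 2 and 0.45 without yHSC replicate 3, in each case not past the limits.

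Cd59b encodes a surface protein that blocks the complement attack complex. It measured 9.66, 7.35, 8.93 and 15.5 FPKM in oHSCs and 7.06, 2.47 and 4.73 FPKM in yHSCs. The groups were apart by a small gap, with a difference of 1.02 (SE 0.33) that was 0.70 and not past the limits without yHSC replicate 2. Of its 50-base words, 9.4% also occur in transcripts of other genes, most in its paralog Cd59a, the highest share among the 21 genes.

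Cd68, a lysosomal glycoprotein of macrophages and other myeloid cells, measured 37.9, 45.4, 34.0 and 26.0 FPKM in oHSCs and 28.2, 22.7 and 9.27 FPKM in yHSCs. Replicate 4 of the oHSCs lay below yHSC replicate 1, and the difference was 0.91 (SE 0.36). It was 0.87, 0.79 and 0.93 without oHSC replicate 1, 2 or 3 and 0.46 without yHSC replicate 3, each not past the limits. Tnfaip8l2, which encodes the immune dampening protein TIPE2, measured 20.3, 14.3, 20.2 and 14.02 FPKM in oHSCs and 12.3, 14.4 and 7.72 FPKM in yHSCs. Replicates 1 and 3 of the oHSCs lay above all yHSC libraries and replicates 2 and 4 did not, and the difference was 0.57 (SE 0.26), not past the limits. It was past them without oHSC replicate 4 (0.65) and without yHSC replicate 2 (0.74), and without yHSC replicate 3 it was 0.33.

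Some libraries stood at the edge for many of these genes. Among oHSCs, replicate 1 was highest for 10 of the 21 genes and replicate 4 was lowest for 11. Replicate 4 was also lowest for 45.1% of the other 1022 listed genes. Among yHSCs, replicate 2 was lowest for 9 of the 21 genes and replicate 3 for 8. Adgrg2 and Adgrg7 were at 0 in both replicates 1 and 3 and were counted for replicate 1, so the order of replicates 2 and 3 rests on ties. Replicate 3 was lowest for 58.6% of the other listed genes, with ties again counted for the lower replicate number. Without yHSC replicate 3, 5 of the 21 genes were past the limits instead of 15, and without oHSC replicate 1, 9 were. The median difference of all listed genes was 0.56 and 0.68 in these fits, against 0.70 with all libraries. The share of all listed genes past the limits in these fits is not given, so the losses cannot be called particular to the 21 genes. Leaving out a library can only keep or raise the number of genes apart between the groups, and without oHSC replicate 4 it was 16 instead of 9. The share of all listed genes apart without that library is not given. The genes Clec11a, Clec1a, Clec1b and Il4, kept the call in all 7 fits that left out 1 library. What sets these libraries apart was not tested.

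The pathways in which the receptors and cytokines act were read from lists of partner genes, and like the 21 genes these were measured only where they were among the listed genes. Of 42 interferon gamma response genes, 19 were listed, 13 were past the limits higher and 0 lower by limma, against 62.5% and 0.959% of all listed genes. The median difference was 0.67 against 0.70 for all listed genes. The 13 were the GTPase genes Gbp2, Gbp6, Tgtp1 and Tgtp2, the antigen presentation genes H2-Aa, H2-DMb1 and H2-DMb2, Irf7, Socs1, Isg20, Usp18, Ube2l6 and Icam1. Tgtp2 had the largest difference, 1.36 (SE 0.39), with 87.5, 61.2, 53.1 and 35.5 FPKM in oHSCs and 37.8, 21.5 and 11.9 FPKM in yHSCs, and it overlapped by 1 oHSC library. Socs1, a feedback inhibitor of JAK kinases, measured 1.82, 3.08, 1.65 and 1.76 FPKM in oHSCs and 0.453, 1.15 and 0.361 FPKM in yHSCs and was apart, with a difference of 0.90 (SE 0.25). Gvin1 was slightly lower, with a difference of -0.09 (SE 0.21). After median-of-ratios scaling 0 of the 19 were past the limits, and without yHSC replicate 3, 8 were.

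Of 25 IL-6 family and JAK-STAT genes, 6 were listed and 3 were past the limits higher, Ebi3 (0.87, SE 0.33), Socs1 and Cish (0.73, SE 0.21), against 62.5% of all listed genes. After median-of-ratios and column-total scaling 0 and 1 of the 6 were past them. Cish, a STAT-induced inhibitor, measured 3.45, 4.52, 4.19 and 4.34 FPKM in oHSCs and 2.11, 1.60 and 2.64 FPKM in yHSCs, with no overlap. Ctf1, Bcl3 and Epor had differences of 0.51, 0.65 and 0.58 and were not past the limits.

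The list named here for inhibitory receptor signalling held 23 genes of receptors, kinases and adaptors. Not all of them are inhibitory, and some, such as Btk and Lat, act in activation, so its count is not one of inhibitory genes alone. Of the 23 genes, 8 were listed and 6 were past the limits higher, Fcgr2b, Lilr4b, Ceacam1, Btk, Lat and Dok3, against 62.5% of all listed genes. Lilr4b, which is not taken here as an inhibitory receptor, had the largest difference, 1.88 (SE 0.37). It measured 6.87, 6.21, 1.76 and 7.30 FPKM in oHSCs and 0.779, 0.818 and 0.336 FPKM in yHSCs. Ceacam1, an inhibitory receptor, had a difference of 1.03 (SE 0.28) with no overlap. Fcgr2b (0.72, SE 0.30), Dok3 (0.80, SE 0.32), Lat (0.64, SE 0.23) and Btk (0.56, SE 0.25) were past the limits with smaller differences. Lilr4b and Ceacam1 stayed past them after both scalings, without yHSC replicate 3 these were the 2 genes past them, and without oHSC replicate 2 the count was 3.

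**Figure D4:**
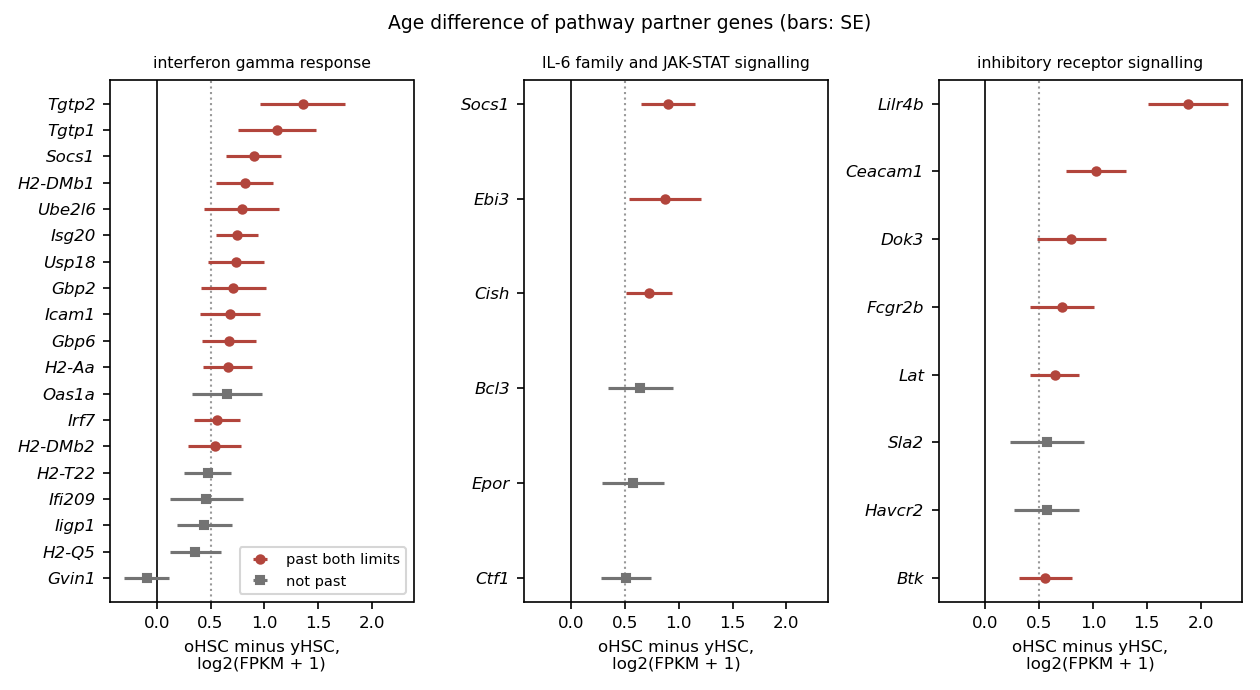
Difference between oHSCs and yHSCs on the log2(FPKM + 1) scale for the listed genes of the interferon gamma response, IL-6 family and JAK-STAT, and inhibitory receptor signalling lists, with bars for 1 SE, red circles for genes past both limits and grey squares for those not past. The dotted line marks 0.5. Lilr4b is highest at 1.88 and Gvin1 alone lies below 0.

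Because several of the 21 genes are also used by mature blood cells, markers of those cells were summed in each library. Of 13 HSC markers, 3 (Procr, Slamf1 and Esam) were among the listed genes, with sums of 22.3 to 31.0 FPKM in oHSCs and 8.96 to 18.1 FPKM in yHSCs. The other 10, Kit and Mecom among them, were not listed. The 3 listed markers were above 0 in every library, which is too weak to check the labelled cell type. Mast cell and basophil markers (8 of 12 listed) summed to 496 to 790.2 FPKM in oHSCs and 233 to 369.7 FPKM in yHSCs. Among them Cma1, Tpsb2, Tpsab1 and Mcpt4, were at 0 in all 3 yHSC libraries, while Cpa3 was between 100.3 and 182 FPKM there. Cma1 measured 54.6, 58.9, 11.6 and 11.8 FPKM and Tpsb2 30.1, 36.4, 6.55 and 10.3 FPKM in oHSC replicates 1 to 4. These genes, and Mcpt4, Hdc and Cd200r3, were highest in the 2 libraries in which Il6 was highest. The other listed markers were not, and of them Cpa3 and Tpsab1 were lowest in oHSC replicate 2 while Mcpt8 was not. The part of mast cell and basophil markers in the differences of Il4, Il6 and P2rx7 was not tested.

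Neutrophil and granulocyte progenitor markers (5 of 11 listed) summed to 7603 to 10843 FPKM in oHSCs and 3931 to 4845 FPKM in yHSCs, and Elane was the most abundant of them. Monocyte, macrophage and dendritic cell markers (6 of 13) summed to 543 to 822 FPKM against 278 to 500.5 FPKM. The monocyte, macrophage and dendritic cell sums were lowest within their groups in oHSC replicate 4 and yHSC replicate 3, as Cd68 and Ifngr1 were. These libraries were also lowest for 45.1% and 58.6% of the other 1022 listed genes. Lyz2, Spi1 and H2-DMb1 were lowest in both, whereas Csf1r was highest in oHSC replicate 4, and Fcgr3 and H2-Aa were lowest in other oHSC libraries. Megakaryocyte and platelet markers (6 of 12) summed to 393 to 606 FPKM against 232 to 303 FPKM. Erythroid markers (11 of 14) summed to 1578 to 2482 FPKM against 839 to 1151 FPKM. In these lists no listed marker was at 0 in all libraries of a group. T and NK cell markers (2 of 9) summed to 2.88 to 10.8 FPKM against 0 to 1.35 FPKM, B cell markers (1 of 9) to 0.914 to 2.69 FPKM against 0 to 1.05 FPKM, and stromal and endothelial markers (2 of 8) to 0.605 to 1.52 FPKM against 0.218 to 0.454 FPKM. The listed markers were chosen as higher in oHSCs like all other listed genes, and their part in the differences of Clec12a, Cd68, Cd300a, Ccr1 and Clec1b was not tested.

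**Figure D5:**
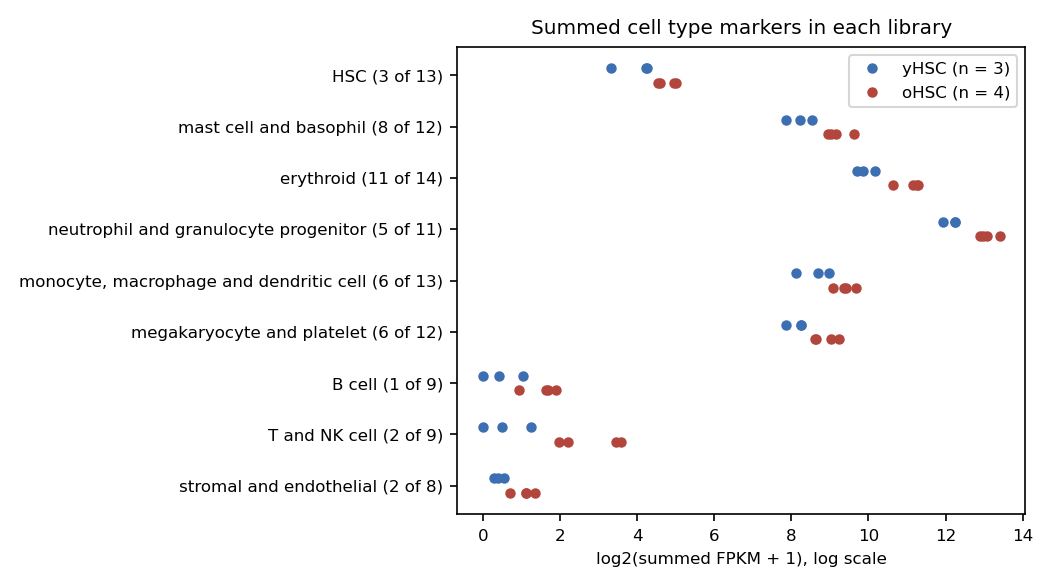
Summed level of the listed markers of each cell type in each library, as log2(summed FPKM + 1), with yHSC libraries (n = 3) in blue and oHSC libraries (n = 4) in red and the number of listed markers of each list in brackets. Granulocyte progenitor and erythroid markers stand highest, and B, T, NK and stromal markers lowest.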

How the data were processed

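RNA-seq was compared between transplanted oHSCs (o_Tx, n = 4) and yHSCs (y_Tx, n = 3), grouped by the sample labels. The authors made SMART-Seq v4 and Nextera XT libraries, ran TrimGalore, Hisat2 (mm10), FeatureCounts and DESeq2 on the reads, and called genes. The deposited values are taken as FPKM computed by the authors, although the headers name no unit and TPM is possible. The gene annotation, the strand setting of the counting and the step giving these values are not given in the sources used here. The deposited tables hold old and young libraries in separate files with the same genes, and whether the values were scaled together is not stated. They hold 1043 genes that the authors had called, and no other gene enters a fit. No counts were used here, so depth is unknown and no interval or floor is given.

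limma (version 3.58.1, R 4.3.3) was fitted to log2(FPKM + 1) over all 1043 genes. The limits were an unadjusted two-sided p of 0.05 and an absolute difference of 0.5, as in the study's methods, which also name a Benjamini-Hochberg correction (run as an alternative). The fit was tested on simulated data. The rule for named genes was that every member is named, that those with a mean of at least 1 FPKM are given in each library, and that partner genes past the limits are named. The members, gene lists and tests were chosen with earlier results of these data known. Alternatives were scaling by column totals or median of ratios, a replicate block, removal of genes under 1 FPKM in both group means, 0.1 as the pseudocount, a mean-variance trend, adjusted p, a log2 limit of 1, and each library left out.

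Deviations of same-numbered libraries from their group means correlated across genes at 0.405, 0.163 and 0.161 for numbers 1 to 3. Values for differently numbered libraries are not given, so these do not establish pairs. The labels give the numbers and state no pairing, and the numbers were treated as pairs only in the blocked fit, as an alternative. Positions of genes and 50-base words of transcripts come from GENCODE M21 (mm10), which matched 97.6% of the genes by symbol, and promoters from RefSeq (GRCm38.p6).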

Additional observations from a re-analysis of the deposited data

Results flagged for a closer look

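Clec12a in oHSC replicate 1, at 197 FPKM, and Tnfrsf12a in oHSC replicate 2, at 23 FPKM, each stood far above the other 3 oHSC libraries. The gap to the nearest library was 0.865 and 0.856 of the group's range, over Dixon's critical value for 4 samples. All 21 genes were examined in the oHSC group, and chance alone flags about 1 in 20 groups. Without oHSC replicate 1 the difference of Clec12a stayed past the limits, and without oHSC replicate 2 that of Tnfrsf12a was 0.41 and did not. The yHSC group of 3 libraries was too small for this check.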

How the results depend on the processing

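With median-of-ratios and column-total scaling the genes past the limits went from 15 to 1 and 2, the interferon gamma genes from 13 to 0 and 1, the IL-6 and JAK-STAT genes from 3 to 0 and 1, the inhibitory signalling genes from 6 to 2 and 2, the genes apart from 9 to 1 and 1, and the median difference from 0.74 to 0.28 and 0.30. The median of all listed genes moved from 0.70 to 0.07 and 0.19. Signs turned after median-of-ratios scaling for Cd300a (-0.0881), Cd81 (-0.0780), Clec12a (-0.10), Ifngr1 (-0.28), P2rx7 (-0.0382), Tnfaip8l2 (-0.20) and Tnfrsf12a (-0.15), and after column-total scaling for Ifngr1 (-0.12), Tnfaip8l2 (-0.0543) and Tnfrsf12a (-0.00800). These factors come from genes chosen as higher in oHSCs and lower every difference, so the signs are no evidence on direction. With adjusted p, 7 of the 21 genes, 7 interferon gamma and 3 inhibitory signalling genes were past the limits. With a log2 limit of 1 they were 4, 2 and 2, with 0 IL-6 and JAK-STAT genes. Leaving out 1 library gave 5 (without yHSC replicate 3) to 15 of the 21 genes, 8 to 11 interferon gamma genes, 2 to 4 IL-6 and JAK-STAT genes, 2 to 6 inhibitory signalling genes, 9 to 16 genes apart, and medians of 0.64 to 0.81. The replicate block, whose estimates equal those without the unpaired oHSC replicate 4, gave 15 genes, with Adgrg2 and Adgrg7 lost and Gpr141 and Ifngr1 gained, and changed no other call among the 21. The filter gave 13 of the 17 genes it tested (Cd300a lost), the pseudocount of 0.1 gave 14 (Cd300a and Tnfrsf12a lost, Gpr141 gained) and the trend 14 (Cd300a, P2rx7 and Tnfrsf12a lost, Gpr141 and Ifngr1 gained). The shares of all listed genes past the limits or apart under these alternatives are not given. The changed counts therefore cannot be called particular to the 21 genes or to a partner list. A count of genes apart can only stay or rise when a library is left out. The cause of these changes was not tested. Adjusted p and the log2 limit do not enter the medians or overlaps, and a table of chosen genes without counts cannot show how depth limits the low genes.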
